A study of Mus musculus with 8 samples.

Results

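Laser microdissection of granulosa cells cuts along the edge of a follicle, where other cells lie within reach of the beam. The 34 genes described here mark those other cells in the mouse ovary, and they were chosen by the cell types they mark, with earlier results from these libraries known. They make up 34 of the 35087 rows that carry a gene name, and all 34 passed the filter on low counts. Each has a row in every library, but not always a read: from 1 of them (in cKO replicate 2, for example) to 8 (in WT replicate 6) had none. They fall into 6 lists: 5 theca genes, 7 stroma genes, 6 genes of mural cells (smooth muscle cells and pericytes), 8 endothelial genes, 5 leukocyte genes and 3 erythroid genes.

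The cKO mice (n = 2 libraries) carried Hif1a flox/flox, in which loxP sites flank part of Hif1a, together with Foxl2-CreERT2, a Cre recombinase that tamoxifen activates and that the granulosa cell gene Foxl2 drives. The WT mice (n = 6 libraries) carried Hif1a flox/flox and no Cre. Both groups were 3 weeks old at the first of 5 daily injections of tamoxifen at 100 mg/kg, and their ovaries were taken 7 days after it ended. Each sample's description names its library with a cKO number, WT samples included, and the groups used here follow the titles and genotype labels. The genotype label of the cKO group reads knockdown. The labels name no animal or follicle stage for a library, so libraries may share an animal, the p-values over libraries may be too small, and the spread they measure may be technical.

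A growing follicle is wrapped in layers. Theca cells outside the basal lamina make androgens from cholesterol and respond to hedgehog ligands that granulosa cells secrete. Stromal fibroblasts lay down fibrillar collagen, and a capillary net of endothelial cells and pericytes runs in the theca, while the granulosa layer itself has no vessels before ovulation. Macrophages patrol the stroma, and red blood cells fill the capillaries. In a bulk library, fewer cells of a type and less RNA per cell cannot be told apart.

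Depth lay between 651656 reads on named genes in cKO replicate 2 and 4719468 in WT replicate 4. Where a gene has 0 reads the limit is 3 reads, equal to 4.60 CPM (counts per 1e6 reads, the total being that on named genes) in cKO replicate 2 and from 0.636 to 1.88 CPM in the other libraries; such limits cover counting error only. Hif1a, the targeted gene, had a normalised read count (CPM after TMM scaling) of 22.2 and 13.6 CPM in cKO replicates 1 and 2, against 35.3 CPM or more in each WT library. Reads from stretches of the gene that Cre leaves in place are counted too. All 16 genes of a granulosa list (Foxl2, Fshr, Inha and others) had reads in every library, so the labelled cell type was present in each. Their summed level differed widely, with 6576 and 2550 CPM in the cKO libraries and from 4691 CPM in WT replicate 1 to 68990 CPM in WT replicate 4.

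The 34 markers together took a small part of each library. They took 0.261% of reads in cKO replicate 1 (95% Wilson interval 0.254% to 0.268%) and 0.108% in cKO replicate 2 (0.100% to 0.116%). Among the WT libraries they took from 0.0277% in replicate 6 (0.0262% to 0.0293%) to 0.240% in replicate 1 (0.232% to 0.247%). WT replicate 6 stood apart at the low end. Only 10 of the 34 markers exceeded 4.60 CPM there, the highest of the limits, against 29 and 25 in cKO replicates 1 and 2 and between 20 and 28 in the other WT libraries. WT replicate 6 also held the most RNA of 12 oocyte markers, with a summed 2097 CPM, against 57.6 and 34.4 CPM in the cKO libraries and at most 665 CPM in the other WT libraries. The part that follicle stage or the line of the cut plays in this was not tested.

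**Figure D1:**
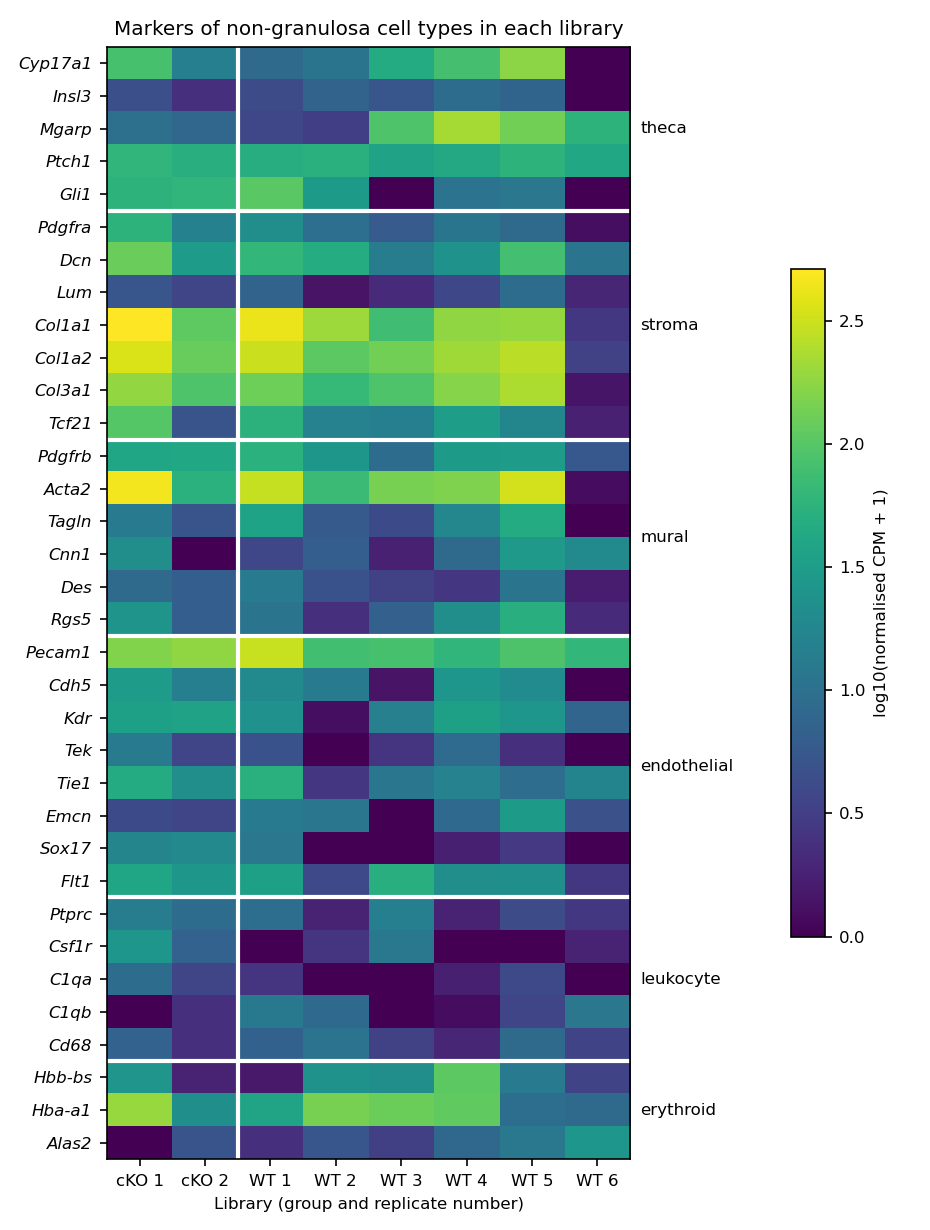
Heat map of the 34 markers (rows, grouped by cell type) in the 8 libraries (columns, cKO left of the white line and WT right of it); colour gives log10(normalised CPM + 1). The collagen genes and Acta2 are the brightest rows in most libraries and are dark in WT replicate 6, and the leukocyte rows are dim in all libraries.

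In summed CPM, which is not per length, stroma markers were the highest of the 6 lists in every library but WT replicate 6, where they were the lowest but 1. In the deposited TPM, which is per length, their sum was the highest in WT replicate 1 only, at 262 TPM. In cKO replicate 1, for example, stroma markers had 298 TPM and erythroid markers 365 TPM. In WT replicate 6 stroma markers had the lowest sum, at 7.75 TPM. Col1a1 and Col1a2 encode the chains of type I collagen, the main fibrillar collagen of connective tissue, and Col3a1 encodes type III collagen. The summed stroma level was 1334 and 369 CPM in cKO replicates 1 and 2, and in WT the lowest was 16.6 CPM (replicate 6), the median 533 CPM and the highest 997 CPM (replicate 1). The first cKO library thus lay above every WT library and the second inside the WT range, and the mean sum was 851 ± 682 CPM over the 2 cKO libraries and 536 ± 349 CPM over the 6 WT libraries (± SD).

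Col1a1 had 509 and 109 CPM in the cKO libraries, against 1.74, 185 and 421 CPM in WT (lowest, median, highest). Its log2 fold change, cKO against WT, was 0.79 ± 1.01 SE (adjusted p = 0.763 in edgeR). Col1a2 had 360.4 and 118 CPM in cKO, against 2.39, 172 and 307 CPM in WT, which gave a log2 fold change of 0.49 ± 0.94 SE (adjusted p = 0.853 in edgeR). For both collagen genes cKO replicate 1 was the highest of the 8 libraries, while cKO replicate 2 lay inside the WT range. Per length, in the deposited TPM, Col1a2, Col1a1 and Col3a1 were close to each other, with means over the 8 libraries of 34.4, 31.0 and 29.5 TPM.

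Pdgfra, the receptor for platelet-derived growth factor on fibroblasts and theca progenitors, had the smallest p of the list. It had 55.5 and 14.7 CPM in cKO, against 0.271, 8.18 and 20.6 CPM in WT. The cKO replicate 2 value lay below WT replicate 1, so the groups overlapped. The log2 fold change was 2.04 ± 0.90 (SE), with an unadjusted p = 0.0398 and an edgeR adjusted p = 0.388. Without cKO replicate 1 the log2 fold change was 0.72. Tcf21, a transcription factor gene of stromal and theca progenitors, showed the same dependence on 1 library, with 96.9 and 4.08 CPM in cKO and from 0.769 to 54.0 CPM in WT. Dcn (decorin), a small proteoglycan that binds collagen, had 122 and 30.7 CPM in cKO and from 9.98 to 78.8 CPM in WT. Lum (lumican), a related proteoglycan, did not exceed 8.06 CPM in any library. All 7 stroma genes had a log2 fold change above 0, as did 47.3% of all genes tested, with a median of 0.79. None of the 7 passed the adjusted threshold of 0.05, which 0.0% of all genes tested passed. Without cKO replicate 1 that median was -0.40.

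The collagen genes did not keep one proportion across libraries. Of the reads on Col1a1 and Col3a1 together, Col1a1 took 73.2% in cKO replicate 1 (95% Wilson interval 70.8% to 75.5%) and 54.8% in cKO replicate 2 (46.7% to 62.6%). In WT it took 76.8% and 76.3% in replicates 1 and 2 but 45.2%, 52.6% and 44.6% in replicates 3, 4 and 5, with intervals of 40.5% to 49.9%, 49.99% to 55.2% and 42.4% to 46.9%. WT replicates 1 and 2 and cKO replicate 1 therefore resembled each other in this share and differed from WT replicates 3 to 5 by more than counting error. WT replicate 6 held only 10 reads on both genes.

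**Figure D2:**
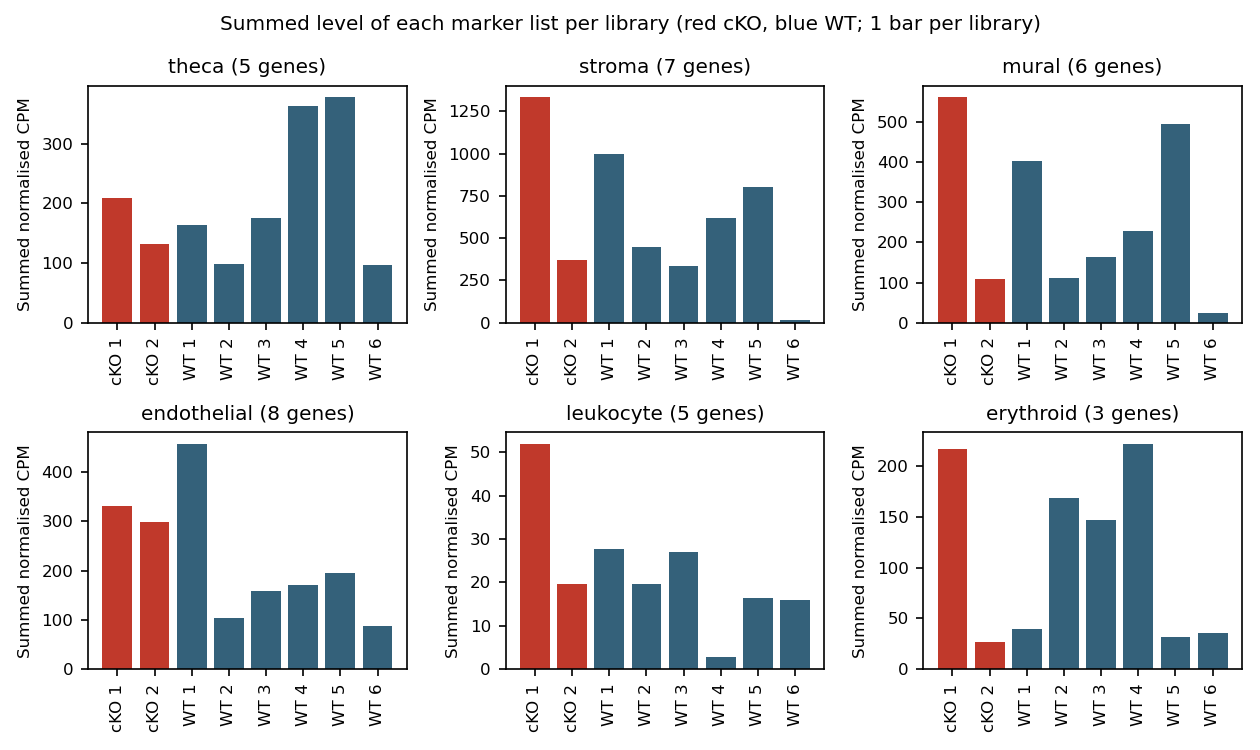
Summed normalised read count (CPM, linear axis from 0) of each marker list in each library, 1 bar per library, with cKO in red left of WT in blue. In the stroma and mural panels cKO replicate 1 is the highest bar, at 1334 and 562 CPM, and WT replicate 6 is the lowest, at 16.6 and 24.7 CPM.

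Mural markers followed the same order of libraries at both ends. Acta2 encodes smooth muscle actin, a marker of vascular smooth muscle and of the contractile outer theca. It had 458 and 53.0 CPM in cKO, against 0.217, 148 and 335 CPM in WT, which gave a log2 fold change of 0.64 ± 1.15 SE (adjusted p = 0.841 in edgeR). In WT replicate 6 this was a single read, so Acta2 spanned the full width from the highest to the lowest library. Tagln (transgelin), an actin-binding protein of smooth muscle, had 12.1 and 4.08 CPM in cKO, against 0, 10.9 and 44.8 CPM in WT. Its log2 fold change was -1.05 ± 1.38 SE (adjusted p = 0.774 in edgeR). Pcsk7 overlaps Tagln on the opposite strand, and the libraries do not mark strand, so reads from the pair cannot be told apart where they overlap.

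Pdgfrb, the receptor by which pericytes are recruited to vessels, had the smallest p of this list. It had 39.4 and 40.8 CPM in cKO, against 4.56, 27.4 and 52.5 CPM in WT, which gave a log2 fold change of 0.69 ± 0.70 SE (adjusted p = 0.691 in edgeR). The cKO libraries agreed closely for Pdgfrb, while for Acta2 they were the highest and the second lowest of the 8 libraries. Cnn1 (calponin), an actin-binding protein of smooth muscle, behaved differently from Acta2. It had 20.7 CPM in cKO replicate 1 and no read in cKO replicate 2, against from 0.776 CPM in WT replicate 3 to 27.5 CPM in WT replicate 5. WT replicate 6, with 1 read of Acta2 and 0 of Tagln, held 84 reads of Cnn1 (18.2 CPM). Des (desmin), an intermediate filament gene of muscle, had at most 12.0 CPM in any library, and Rgs5, a pericyte gene, had 24.2 and 5.43 CPM in cKO and from 1.09 to 49.2 CPM in WT. The summed mural level was 562 and 109 CPM in cKO, against 24.7, 196 and 496 CPM in WT. Of the 6 genes, 5 had a log2 fold change above 0 (median 0.22), as did 47.3% of all genes tested. None of the 6 passed the adjusted threshold, which 0.0% of all genes tested passed. Without cKO replicate 1 the median was -1.59.

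Endothelial markers were the list on which the cKO libraries agreed most closely, at a summed 332 and 299 CPM. In WT the lowest sum was 88.2 CPM (replicate 6), the median 164 CPM and the highest 458 CPM (replicate 1). Both cKO libraries lay above 5 of the 6 WT libraries and below WT replicate 1. Pecam1, an adhesion molecule of endothelial junctions, made up the largest part of the sum in every library. It had 154 and 180.2 CPM in cKO, against 59.4, 79.4 and 304 CPM in WT, which gave a log2 fold change of 0.58 ± 0.59 SE (adjusted p = 0.691 in edgeR). Without WT replicate 1 its log2 fold change was 1.20, with an edgeR adjusted p = 0.0966.

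Sox17, a transcription factor gene of arterial endothelium, had the smallest p of the endothelial list. It had 16.2 and 17.7 CPM in cKO, against 0, 0.361 and 10.9 CPM in WT. Its groups did not overlap, with WT replicates 2, 3 and 6 at 0 reads. Among the WT libraries it reached the level of the filter on low counts in replicate 1 only. It was thus kept only with the reads of the cKO libraries, where it was high. The log2 fold change was 2.99 ± 1.51 (SE, unadjusted p = 0.0685, edgeR adjusted p = 0.437) and rested on 45 reads in cKO and 31 in WT. Kdr and Flt1 encode receptors for vascular endothelial growth factor. Kdr had 33.8 and 35.3 CPM in cKO, against 0.272, 18.2 and 33.7 CPM in WT. The groups did not overlap, but WT replicate 4 lay just below the cKO libraries, and the log2 fold change was 1.01 ± 0.91 SE (adjusted p = 0.651 in edgeR). Flt1 had 37.9 and 26.3 CPM in cKO, against 1.74, 21.03 and 48.5 CPM in WT, which gave a log2 fold change of 0.59 ± 0.90 SE (adjusted p = 0.811 in edgeR).

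Tie1 and Tek encode the angiopoietin receptor pair. Tie1 had 44.9 and 20.7 CPM in cKO and from 1.71 to 51.6 CPM in WT, while Tek had 12.1 and 2.72 CPM in cKO and from 0 to 7.93 CPM in WT. Cdh5, the cadherin of endothelial junctions, had 30.3 and 13.6 CPM in cKO and from 0 to 25.5 CPM in WT. Emcn (endomucin), a sialomucin of capillaries and veins, was the 1 member of this list with a log2 fold change below 0, at -1.83, with 3.03 and 2.72 CPM in cKO and from 0 to 28.6 CPM in WT. In WT replicate 6 Pecam1 had 279 reads and Tie1 had 71, Kdr 31 and Emcn 17, while Cdh5, Tek and Sox17 had none. In WT replicate 2 Pecam1 also had 279 reads, beside 43 of Cdh5, 39 of Emcn, 6 of Tie1, 1 of Kdr and none of Tek or Sox17. Over the 8 genes, 7 had a log2 fold change above 0, as did 47.3% of all genes tested, with a median of 0.90.

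Theca markers split into genes that did not move together. Cyp17a1 encodes the enzyme that turns progestins into androgens and is the defining steroidogenic gene of theca cells. It had 81.3 and 13.6 CPM in cKO, against 0, 27.9 and 169.8 CPM in WT. The cKO libraries lay inside the WT range, and the log2 fold change was -0.11 ± 1.32 SE (adjusted p = 0.981 in edgeR). Its direction turned with limma-voom (0.54), with limma on log2(TPM + 1) (0.60), with the replicate block (1.97), and on leaving out cKO replicate 2 (0.53), WT replicate 4 (0.062) or WT replicate 5 (0.78). WT replicate 6 had no read of Cyp17a1, where the limit of 3 reads is 0.650 CPM. Insl3, a peptide hormone of theca cells, was low in all libraries, with 3.53 and 1.36 CPM in cKO and from 0 to 8.10 CPM in WT. Jak3 overlaps Insl3 on the same strand. Cyp17a1 took 95.8% of the reads on Cyp17a1 and Insl3 in cKO replicate 1 (95% Wilson interval 91.7% to 98.0%), against 61.7% in WT replicate 2 (49.0% to 72.9%) and 96.3% in WT replicate 5 (94.7% to 97.4%).

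Mgarp encodes a mitochondrial protein abundant in steroidogenic cells, and it is a gene that hypoxia-inducible factor is known to induce. It had 9.08 and 6.88 CPM in cKO, against 2.17, 72.5 and 221 CPM in WT. Its levels followed another order than Cyp17a1: WT replicates 1 and 2 had 2.73 and 2.17 CPM, below both cKO libraries, and WT replicates 3 to 6 had 89.7, 221, 136 and 55.3 CPM. WT replicate 6 therefore held 255 reads of Mgarp and none of Cyp17a1 or Insl3. The summed granulosa level was also high in WT replicates 3 to 6, at 23566 CPM or more, and 10330.0 CPM or less in WT replicates 1 and 2 and the cKO libraries. The log2 fold change of Mgarp was -3.37 ± 1.47 (SE), with an unadjusted p = 0.0381 and an edgeR adjusted p = 0.386. With the replicate block, which compares replicates 1 and 2 of each group, it was 1.67. With no filter on low counts its edgeR adjusted p = 0.00014.

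Ptch1 and Gli1 are both targets of hedgehog signalling, the route by which granulosa cells address theca cells. Ptch1, the hedgehog receptor, varied least of the 34 genes between libraries, with 59.1 and 50.3 CPM in cKO, against 35.4, 45.0 and 54.7 CPM in WT. Gli1, a transcription factor that hedgehog signalling induces, had 55.5 and 59.8 CPM in cKO, against 0, 10.3 and 102 CPM in WT. The log2 fold changes were 0.27 ± 0.39 SE for Ptch1 (adjusted p = 0.796 in edgeR) and 1.22 ± 1.34 SE for Gli1 (adjusted p = 0.719 in edgeR). Of the reads on Gli1 and Ptch1 together, Gli1 took 48.5% and 54.3% in cKO, against 68.1%, 35.9%, 18.9% and 16.5% in WT replicates 1, 2, 4 and 5. In WT replicates 3 and 6 it had no read beside 91 and 190 reads of Ptch1, for which the 95% Wilson interval reaches 4.05% and 1.98%. Arhgap9 overlaps Gli1 on the opposite strand. The summed theca level was 208 and 132 CPM in cKO, against 96.6, 169 and 377 CPM in WT, and it depended on Mgarp: the log2 ratio of the group means was -0.32 with all 5 genes and 0.34 without Mgarp. Of the 5 genes 2 had a log2 fold change above 0, as did 47.3% of all genes tested, with a median of -0.11.

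**Figure D3:**
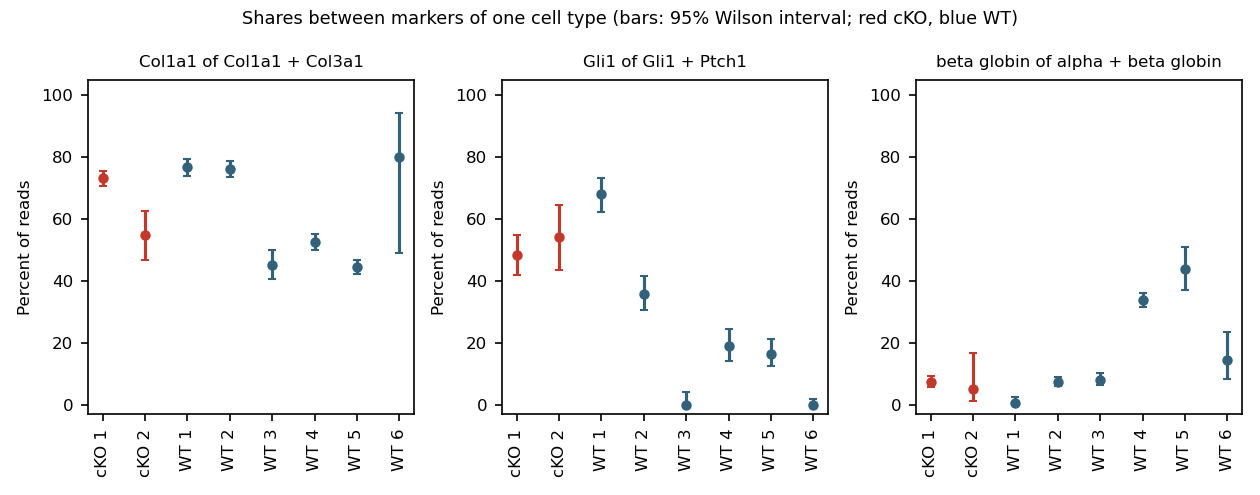
Percent of reads that 1 marker took of the reads on a pair or set of markers of the same cell type, per library, with 95% Wilson intervals, cKO in red left of WT in blue. Left, Col1a1 of Col1a1 and Col3a1; middle, Gli1 of Gli1 and Ptch1; right, Hbb-bs and Hbb-bt of all 4 globin genes. The Col1a1 share is near 75% in WT replicates 1 and 2 and near 50% in WT replicates 3 to 5, and the beta globin share is highest in WT replicates 4 and 5.

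Leukocyte markers had the lowest summed CPM of the 6 lists in every library. In summed TPM they were the lowest in every library but WT replicate 6, where they had 16.3 TPM and stroma markers 7.75 TPM. Of the 5 genes 4 exceeded 4.60 CPM, the highest limit, in cKO replicate 1 and 2 did in cKO replicate 2, against 0 in WT replicate 4 and 3 in WT replicate 1 at the ends of the WT range. Ptprc encodes CD45, carried by all leukocytes, and it had 12.6 and 8.15 CPM in cKO, against 0.794, 2.47 and 13.6 CPM in WT. Csf1r, the receptor for the macrophage growth factor CSF1, had 25.2 and 6.17 CPM in cKO, against 0, 0.434 and 11.03 CPM in WT. Its log2 fold change was 2.87 ± 1.498 (SE, unadjusted p = 0.0760, edgeR adjusted p = 0.445), the smallest p of the list. Of its 55 reads in cKO, 50 were in replicate 1, and WT replicate 3 lay above cKO replicate 2. Hmgxb3 overlaps Csf1r on the opposite strand. C1qa and C1qb encode chains of complement C1q, which tissue macrophages make together. C1qb had 0 and 1.36 CPM in cKO, against 0, 5.02 and 11.5 CPM in WT, which gave a log2 fold change of -3.36 ± 2.21 SE (adjusted p = 0.539 in edgeR) that rested on 1 read in cKO. C1qa had 8.08 and 2.72 CPM in cKO and from 0 to 2.93 CPM in WT. In cKO replicate 1, C1qa had 16 reads and C1qb none, while in WT replicate 6 C1qb had 50 reads and C1qa none. Both had reads in cKO replicate 2 (2 of C1qa and 1 of C1qb) and in WT replicates 1 (3 and 21), 4 (3 and 1) and 5 (13 and 12). Cd68, a lysosomal protein of macrophages, had 6.06 and 1.36 CPM in cKO, against 0.962, 4.31 and 9.79 CPM in WT (log2 fold change -0.32 ± 1.18, SE, edgeR adjusted p = 0.927). The summed leukocyte level was 52.0 and 19.8 CPM in cKO, against 2.72, 18.0 and 27.7 CPM in WT. Of the 5 genes, 3 had a log2 fold change above 0, as did 47.3% of all genes tested, with a median of 1.15. C1qa, 1 of the 3, reached the filter's level, which is scaled for depth, in the cKO libraries only. The filter thus favoured its direction (log2 fold change 2.59). Csf1r, another of the 3, reached that level in both cKO libraries but among the WT libraries in replicate 3 only, so the filter favoured its direction too.

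Of the erythroid markers, a globin gene took the most reads in every library but WT replicate 6, where Alas2 made up 70.9% of the summed CPM. Each mouse globin chain is encoded by a pair of near-identical genes, so the counts of the pair depend on how reads were split. The coding sequences of Hba-a1 and Hba-a2 differ at 1 of 426 bases (C381T, counted from the first base of the start codon, Hba-a1 first), and those of Hbb-bs and Hbb-bt at 1 of 441 bases (C417T, Hbb-bs first). Of the 50-base windows of the Hba-a1 transcript 67.5% also occur in the Hba-a2 transcript, and 65.8% of those of Hbb-bs occur in Hbb-bt. The following stretches, read from the GENCODE M21 transcripts on GRCm38 in the direction of the gene, show how little tells the copies apart; capitals mark the differing base. They lie at chr11:32284313-32284373 (plus strand) for Hba-a1, chr11:32297130-32297190 (plus strand) for Hba-a2, chr7:103826668-103826722 (minus strand) for Hbb-bs and chr7:103812659-103812713 (minus strand) for Hbb-bt, each in the last coding exon.
Hba-a1: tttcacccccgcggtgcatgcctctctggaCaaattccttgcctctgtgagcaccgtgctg
Hba-a2: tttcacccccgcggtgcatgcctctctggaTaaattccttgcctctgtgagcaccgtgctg
Hbb-bs: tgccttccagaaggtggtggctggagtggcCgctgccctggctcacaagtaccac
Hbb-bt: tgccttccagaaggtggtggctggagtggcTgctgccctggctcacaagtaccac

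Hba-a1, an alpha globin gene, had 192 and 21.6 CPM in cKO, against 7.71, 74.2 and 140.5 CPM in WT, which gave a log2 fold change of 0.60 ± 0.96 SE (adjusted p = 0.818 in edgeR). It had the highest mean TPM of the 34 genes, at 148 TPM, ahead of Acta2 at 102 TPM. Hbb-bs, a beta globin gene, had 24.6 and 0.835 CPM in cKO, against 0.547, 16.1 and 104 CPM in WT, which gave a log2 fold change of -0.97 ± 1.33 SE (adjusted p = 0.786 in edgeR). Hba-a2 was close to Hba-a1, with 195 and 28.7 CPM in cKO, and Hba-a1 took between 33.2% and 50.7% of the reads of the pair in the 8 libraries. Alpha and beta chains, which red blood cells make in balance, were unequal in reads. The 2 beta genes took 7.26% of reads on the 4 globin genes in cKO replicate 1 (95% Wilson interval 5.68% to 9.24%) and 5.13% in cKO replicate 2 (1.42% to 16.9%). In WT they took 0.485% in replicate 1 (0.0857% to 2.70%), 7.44% and 8.18% in replicates 2 and 3, 33.9% and 44.0% in replicates 4 and 5, and 14.5% in replicate 6. The WT libraries differed among themselves in this share by more than counting error.

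Alas2, the erythroid enzyme of the first step of haem synthesis, had the smallest p of the list. It had 0 and 4.08 CPM in cKO, against 1.40, 5.64 and 25.2 CPM in WT, which gave a log2 fold change of -2.37 ± 1.55 SE (adjusted p = 0.538 in edgeR) that rested on 3 reads in cKO. Its highest level, in WT replicate 6, stood beside the lowest level of Hba-a1, and cKO replicate 1 had no read of Alas2 beside 380 of Hba-a1. Apex2 overlaps Alas2 on the opposite strand. The summed erythroid level was 216 and 26.5 CPM in cKO, against 31.3, 93.3 and 222 CPM in WT. Of the 3 genes 1 had a log2 fold change above 0, as did 47.3% of all genes tested, with a median of -0.97.

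The question for the whole set was whether other cells were represented differently in cKO and WT libraries. The quasi-likelihood test of edgeR, run over 15102 genes, called none of the 34 markers (0) at the adjusted threshold of 0.05, and 0 genes in all (0.0%). At an unadjusted p under 0.05 it counted 1342 genes lower in cKO (8.89% of all tested) and 513 higher (3.4%). Among the markers there was 1 gene lower, Mgarp, and 1 higher, Pdgfra. DESeq2, which gave adjusted p-values for 8940 genes, called 241 of them (2.7%); 21 markers were among the 8940 and 0 of these were called. In 2 markers (5.88%), Kdr and Sox17, the groups did not overlap and cKO was higher, against 6.06% of all genes tested. Sox17 was kept by the filter only with the reads of the cKO libraries, which favoured this outcome. In 0 markers the groups lay apart with cKO lower, against 6.39%. The markers' shares higher in cKO are near the background, and their shares lower in cKO are below it. A log2 fold change above 0 was seen in 25 of the 34 markers (73.5%), with a median of 0.58, against 47.3% of all genes tested and a median of -0.077. The 25 include C1qa, which the filter kept through the cKO libraries only. They also include Sox17 and Csf1r, which the filter kept only with the reads of the cKO libraries added to those of a single WT library.

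**Figure D4:**
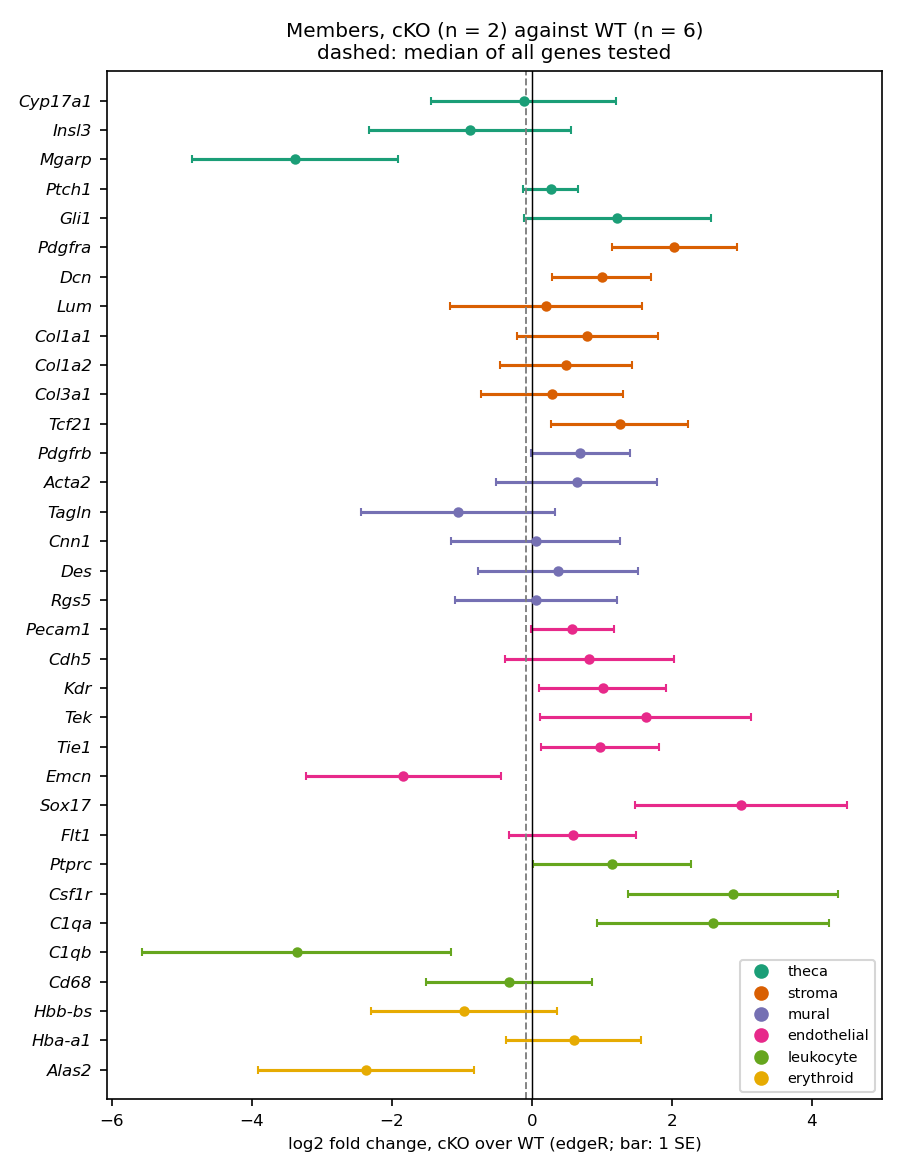
Log2 fold change of each marker, cKO (n = 2) over WT (n = 6), from edgeR's quasi-likelihood fit, with bars of 1 SE and colours by cell type; the dashed line is the median of all genes tested, -0.077. Most points lie right of 0, and Mgarp, C1qb, Alas2 and Emcn lie farthest to the left.

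The surplus of positive values over the background was present with cKO replicate 1 and not without it. Without that library 15 markers had a log2 fold change above 0 (44.1%, against 43.1% of all genes in that fit) and 19 below. Without cKO replicate 2, 27 were above 0 (79.4%, against 38.6% of all genes) and 7 below. With WT replicates 1 to 6 left out in turn, the share of markers above 0 was 67.6%, 66.7%, 67.6%, 75.8%, 75.8% and 69.7%, against 47.7%, 48.5%, 50.6%, 46.9%, 50.4% and 50.4% of all genes. For the summed levels, the log2 ratio of group means, cKO against WT, was 0.67 for stroma, 0.50 for mural and 0.18 for erythroid markers, and without cKO replicate 1 it was -0.54, -1.13 and -2.02. For endothelial markers the ratio was 0.69 with both libraries and 0.61 without cKO replicate 1, and for leukocyte markers it was 0.97 and 0.11. The markers counted at an unadjusted p under 0.05 changed with the library left out. There were 0 without cKO replicate 1, WT replicate 4 or WT replicate 5, against 12.7%, 9.01% and 9.51% of all genes in those fits. There was 1 without WT replicate 2 (Mgarp, 3.03% of markers against 12.2% of all genes) or WT replicate 3 (Csf1r, 2.94% against 11.7%). There were 2 without cKO replicate 2 (Pdgfra and Alas2, 5.88% against 5.29%) and 2 without WT replicate 6 (Mgarp and Pdgfra, 6.06% against 10.9%). The 6 without WT replicate 1 were Mgarp, Gli1, Pdgfra, Pecam1, Tie1 and Sox17, or 17.6% of markers against 20.2% of all genes. The share of reads on the mitochondrial genome, a value that often tracks RNA quality, was 8.87% and 10.5% in cKO, against 1.42% to 3.65% in WT; its part in these values was not tested.

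Further markers of the same cell types, 73 genes in 6 lists, were read the same way. The counts above 0 stand beside 47.3% of all genes tested. Of 14 further endothelial genes 13 were tested, and 11 of these had a log2 fold change above 0, with a median of 0.72. Robo4, a guidance receptor of endothelium, had 9.59 and 17.7 CPM in cKO, against 0, 1.11 and 4.05 CPM in WT, with no overlap and a log2 fold change of 2.92 ± 1.23 (SE, unadjusted p = 0.0324, edgeR adjusted p = 0.380). Prox1, the transcription factor of lymphatic endothelium, had 4.04 and 5.43 CPM in cKO and reads in 1 WT library, at 3.10 CPM. Of 9 further mural genes tested 7 were above 0 (median 0.38), among them Cald1 (caldesmon) with 202 and 224 CPM in cKO, against 35.8, 89.5 and 278 CPM in WT, and Myh11, the smooth muscle myosin heavy chain, with 120.1 and 35.3 CPM in cKO, against 7.60, 34.6 and 128 CPM in WT. None of these passed the adjusted threshold.

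Among further stroma genes, 10 of 13 tested were above 0 (median 0.48). At an unadjusted p under 0.05 there were 2 of the 13 lower in cKO and 1 higher, against 8.89% and 3.4% of all genes tested. Fbln1 (fibulin 1), a matrix protein, had 140.3 and 80.2 CPM in cKO, against 104, 427 and 712 CPM in WT, which gave a log2 fold change of -1.99 ± 0.70 SE (adjusted p = 0.369 in edgeR and adjusted p = 0.0476 in DESeq2). Loxl1, which cross-links elastin, had 21.2 and 2.72 CPM in cKO, against 20.6, 44.5 and 69.0 CPM in WT (log2 fold change -1.78, edgeR adjusted p = 0.380). The higher one was Mfap5, a microfibril protein gene named after its values were seen, with 96.4 and 23.1 CPM in cKO, against 5.17, 25.7 and 32.0 CPM in WT (log2 fold change 1.53, edgeR adjusted p = 0.381). WT replicate 6, with 16.6 CPM of the 7 stroma markers in all, had 338 CPM of Fbln1 and 69.0 CPM of Loxl1. Among further theca genes, 5 of 8 were above 0 (median 0.20). Fdx1 (adrenodoxin), which feeds electrons to the mitochondrial steroid enzymes, had 81.8 and 19.0 CPM in cKO, against 45.4, 125 and 285 CPM in WT (log2 fold change -1.52, edgeR adjusted p = 0.427). Like Mgarp, it was higher in WT replicates 3 to 6, at 122 CPM or more, than in WT replicates 1 and 2, at 67.2 and 45.4 CPM. WT replicate 6 held 564 reads of Fdx1, beside none of Cyp17a1 or Insl3.

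The further leukocyte list was low as well. Of its 18 genes only 7 passed the filter, 5 of them above 0 (median 0.78), and the summed level was 32.3 and 59.3 CPM in cKO, against 12.5, 24.1 and 55.5 CPM in WT. The cKO libraries thus stood in the reverse order of the first 5 leukocyte genes, which summed to 52.0 and 19.8 CPM in cKO replicates 1 and 2. Adgre1, which encodes the macrophage antigen F4/80, had reads in 2 libraries, at 8.15 CPM in cKO replicate 2 and 3.15 CPM in WT replicate 5. Coro1a, an actin regulator of leukocytes, had 6.56 and 0 CPM in cKO and at most 2.73 CPM in WT. Of 9 further erythroid genes 6 were tested, 4 of them above 0 (median 0.32). Epb42, a protein of the red cell membrane skeleton, had 9.45 and 25.7 CPM in cKO, against 3.25, 5.29 and 18.5 CPM in WT (log2 fold change 1.30, edgeR adjusted p = 0.521).

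Set beside the granulosa list, the members were a larger fraction in some libraries than in others. The 34 markers had 5358 and 703 reads in cKO replicates 1 and 2, beside 13030 and 1877 reads of the 16 granulosa genes. In WT replicate 1 the numbers were 3821 and 8584 reads, and in WT replicate 4 they were 6678 and 286941. Fshr, the receptor for follicle-stimulating hormone on granulosa cells, had 10.6 and 6.79 CPM in cKO and 40.4 CPM or more in each WT library, and Foxl2 had 126 and 88.3 CPM in cKO, against 90.9, 143 and 330.4 CPM in WT. WT replicate 1 and the cKO libraries thus shared a low granulosa sum and a high endothelial sum. Inha was the largest part of the granulosa sum in every library, from 25.4% in cKO replicate 2 to 62.0% in WT replicate 5. Not every gene of the list followed the sum. In WT replicates 1 and 4 Foxl2 had 148 and 139 CPM, and Amh had 762 and 49.5 CPM. Of the 16 genes, 14 had a log2 fold change below 0, cKO against WT, and 2 above, where 47.3% of all genes tested were above. At an unadjusted p under 0.05 in edgeR 9 were lower in cKO and 1 higher, against 8.89% and 3.4% of all genes tested. At the adjusted threshold edgeR called 0 of the 16, and DESeq2 called 4, against 2.7% of the genes to which it gave an adjusted p. WT replicate 2 had a granulosa sum of 10330.0 CPM and an endothelial sum of 103 CPM.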

How the data were processed

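Smart-seq2 libraries of polyadenylated RNA from laser-captured granulosa cells were read from 8 deposited quantification tables, 1 per library. HISAT2, Salmon and mm10 are named, with no version or annotation, per the submitters' processing notes. The authors deposited estimated counts, not whole, and TPM per row, per the file headers. Rows with a transcript identifier only (1548 of 36635, from 0.435% to 0.739% of reads) entered neither library sizes nor tests. Counts were rounded for tests. edgeR 4.0.16 (R 4.3.3) kept 15102 genes by filterByExpr (minimum count 10, minimum total 15), scaled by TMM, fitted group alone and adjusted p-values by Benjamini-Hochberg over all genes, threshold 0.05. SE was derived from the F statistic. Sums over lists had no test. Coordinates are from GENCODE M21 (GRCm38, which mm10 denotes), in which all 34 members matched. Of the list genes 1, Ahsp, was not among the rows.

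The members and lists were chosen with earlier results of these data known. Given in full were, per list, the 2 members with the highest mean TPM, the smallest p, and any unadjusted p under 0.05; of further markers, the 2 smallest p, except those not reported here; and Foxl2, Fshr and Hif1a. Others are by range, and the marker shares were chosen after values were seen. Alternatives were DESeq2 1.42.0, limma 3.58.1 (voom with quality weights; log2(TPM + 1)), DESeq2 size factors, library size only, no filter, 10 reads in 6 libraries, no mitochondrial genome genes, the replicate number as a block, and each library left out. The fit was tested on simulated data. No 2 libraries agreed within sampling noise (chi-square per degree of freedom from 14.5 to 112 over 28 pairs).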

Additional observations from a re-analysis of the deposited data

Results flagged for a closer look

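Among the 6 WT libraries, 7 of 40 values (34 markers and 6 sums) had 1 library far from the others, with a gap to the nearest over 0.625 of the range. For independent values with a normal spread, chance flags about 1 in 20 groups. CPM cannot fall below 0 and the sums contain the markers, so that rate need not hold here. WT replicate 1 stood highest for 5 of them: Gli1 at 102 CPM (nearest 28.8 CPM), Pecam1 at 304 CPM (nearest 89.1 CPM), Tie1 at 51.6 CPM (nearest 15.5 CPM), Sox17 at 10.9 CPM (nearest 1.80 CPM) and the endothelial sum at 458 CPM (nearest 195 CPM). WT replicate 3 stood highest for Csf1r, at 11.03 CPM (nearest 1.63 CPM). WT replicate 4 stood highest for Hbb-bs, at 104 CPM (nearest 23.7 CPM).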

How the results depend on the processing

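The count of genes at the adjusted threshold was 0 in the main setting, 1 with the replicate block, 478 with no filter, 241 in DESeq2 and 5 in limma on log2(TPM + 1). At an unadjusted p under 0.05 it was 1855, against 179 with the block and 3486 with no filter. Of the markers it was 2, against 6 with no filter and 1 with at least 10 reads in 6 libraries. In limma-voom 8 markers were counted, and 4 in limma on log2(TPM + 1). The shares of all genes in these other fits are not given, so the marker counts show neither an excess nor a lack. With no filter 1 marker passed the adjusted threshold, Mgarp (log2 fold change -3.47). The replicate numbers shared by the groups are 1 and 2 only. Over genes, the difference between replicates 1 and 2 in cKO had a correlation of -0.32 with that in WT. This is 1 pair of differences, so it cannot settle whether equal numbers share an animal or a batch. With the block the log2 fold change turned for Cyp17a1 (1.97), Mgarp (1.67), Col1a1 (-0.32), Tcf21 (-0.24), Des (-0.11), Hbb-bs (0.66) and Hba-a1 (-0.083). It turned with no filter for Cnn1 (-0.056) and Rgs5 (-0.063), in limma-voom for Cyp17a1 (0.54), Cnn1 (-0.73) and Cd68 (0.32), and in limma on log2(TPM + 1) for Cyp17a1 (0.60), Ptch1 (-0.17) and Cnn1 (-0.97). The leukocyte median was 2.41 in limma-voom and had no value with at least 10 reads in 6 libraries. With each library left out in turn, genes at the adjusted threshold numbered 0 to 1, genes at the unadjusted one 865 to 3016, and markers 0 to 6 at the unadjusted and 0 at the adjusted one. The log2 ratio of sums ran for theca from -0.69 to -0.025, stroma from -0.54 to 1.31, mural from -1.13 to 1.24, endothelial from 0.54 to 1.14, leukocyte from 0.11 to 1.51, erythroid from -2.02 to 1.01. The median log2 fold change ran for theca from -1.84 to 0.44, stroma from -0.40 to 1.43, mural from -1.59 to 0.80, endothelial from 0.22 to 1.16, leukocyte from 0.21 to 1.85, erythroid from -1.78 to 0.21. The log2 fold change turned sign within these ranges: Dcn from -0.37 to 1.58, Lum from -0.29 to 0.78, Col1a1 from -0.77 to 1.43, Col1a2 from -0.59 to 0.99, Col3a1 from -0.40 to 0.70, Tcf21 from -2.45 to 2.08, Acta2 from -1.69 to 1.38, Cnn1 from -8.05 to 0.89, Rgs5 from -1.49 to 0.998, Hba-a1 from -1.78 to 1.38, Cyp17a1 from -2.01 to 0.78, Cd68 from -1.88 to 0.26, Hbb-bs from -4.35 to 0.21. With 1 cKO library left, it is assumed to vary as the WT libraries do. The cause of each change was not tested. The 2 cKO libraries, and the depth of the second, limit the precision.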

Other observations

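Markers of the ovarian surface epithelium, a list of 10 keratin, uroplakin and other genes, were low in all libraries, with a summed 30.8 and 35.6 CPM in cKO, against 34.3, 49.7 and 73.1 CPM in WT (lowest, median, highest). Of the 10 genes 4 were tested. Among the WT libraries Krt8, named after its values were seen, made up from 45.6% of the sum in replicate 1 to 85.7% in replicate 5. In cKO replicate 2 it made up 34.4%, and in cKO replicate 1 Krt18 made up the largest part, at 37.6%. Krt8 had 8.08 and 12.2 CPM in cKO, against 18.0, 28.0 and 60.3 CPM in WT, with no overlap (log2 fold change -1.87 ± 0.65 SE, adjusted p = 0.369 in edgeR).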
